A study of Mus musculus with 39 samples.

Results

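The circadian clock genes described here are 10 genes, Arntl, Clock, Per1, Per2, Per3, Cry1, Cry2, Nr1d1, Nr1d2 and Dbp, which were chosen by name. The choice was made with earlier results of these data known. All 10 were listed in both deposited expression tables, which share 13230 genes, and all 10 passed the filter on low values that left 11754 genes for testing. RNA had been sequenced from fractions of 2 sucrose gradients of liver, 17 libraries of gradient 1 (fractions 4 to 19 and 21) and 22 libraries of gradient 2 (fractions 3 to 24), with low numbers at the light end. The livers came from wild-type FVB female mice with no treatment named, the gradients are described as independent biological replicates, and no group differed from another in genotype. How many mice stood behind each gradient is not given in the sources used here, and p-values measure the spread between these gradients. The tissue was broken with beads and no detergent, and nuclei were pelleted before loading. The libraries still held RNAs that reside mostly in the nucleus, as given below. The ages of the mice and the time of day at which they were killed are not given in the sources used here. Time of day, animal, homogenate, gradient run and library preparation therefore cannot be told apart whenever gradient 1 is compared with gradient 2.

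The clock is a feedback loop of transcription. BMAL1 (encoded by Arntl) and CLOCK bind E-boxes and turn on the Per, Cry, Nr1d and Dbp genes, PER and CRY proteins return to block BMAL1 and CLOCK, and the REV-ERB proteins encoded by Nr1d1 and Nr1d2 repress Arntl through response elements that they share with the ROR receptors. DBP acts at D-boxes, and in liver the RNAs of many metabolic genes follow this loop over the day, with Arntl high when Dbp, Nr1d1 and the Per RNAs are low.

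These elements were looked up in the promoters of the clock genes, since the levels of Arntl, Per3 and Dbp differed by more than 2-fold between the gradients. Promoters were taken from RefSeq (GRCm38.p6, the assembly of the mm10 index used by the authors), each running from 250 bases before to 50 bases after an annotated start. Windows were held for 9 of the 10 genes, 13 windows in all, and there was none for Per2. The E-box CACGTG was in the windows of 2 genes, Cry1 and Per1, and in 7.15% of all 32851 windows. The D-box, searched as TTATGTAA or TTACGTAA on either strand, was in the window of Per3 and in 1.06% of all windows. The core of the ROR and REV-ERB element, TAGGTCA on either strand, was in the later of the windows of Arntl and in 2.61% of all windows. These words do not overlap one another, and no match says only that the letters are not in that window. The Per1 and Cry1 sequences show an E-box in capitals at −166 and −60 from the start, the Per3 sequence shows D-boxes at −205 and −158, and the Arntl site shows the receptor core at +31. Per1 lies at chr11:69098699-69098948 on the plus strand, Cry1 at chr10:85185055-85185304 on the minus strand, Per3 at chr4:151044666-151044915 on the minus strand, and the Arntl site at chr7:113207529-113207558 on the plus strand, each written 5′ to 3′ along its gene.
Per1: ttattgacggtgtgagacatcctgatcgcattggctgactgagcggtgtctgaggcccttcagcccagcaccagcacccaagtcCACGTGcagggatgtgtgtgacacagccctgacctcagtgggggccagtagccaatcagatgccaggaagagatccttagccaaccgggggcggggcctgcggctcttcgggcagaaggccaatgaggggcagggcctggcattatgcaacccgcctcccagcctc
Cry1: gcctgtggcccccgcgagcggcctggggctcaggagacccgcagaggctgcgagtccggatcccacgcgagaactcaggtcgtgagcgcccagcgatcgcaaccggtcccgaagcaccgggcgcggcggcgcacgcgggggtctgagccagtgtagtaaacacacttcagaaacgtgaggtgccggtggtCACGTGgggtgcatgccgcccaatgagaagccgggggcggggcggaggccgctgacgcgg
Per3: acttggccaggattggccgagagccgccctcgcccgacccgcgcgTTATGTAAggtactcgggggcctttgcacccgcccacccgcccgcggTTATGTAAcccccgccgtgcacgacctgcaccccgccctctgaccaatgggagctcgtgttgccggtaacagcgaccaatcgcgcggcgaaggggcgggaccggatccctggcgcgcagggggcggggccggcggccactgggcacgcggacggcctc
Arntl: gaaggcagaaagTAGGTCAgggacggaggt

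Values are in TPM (each transcript's share of all transcripts, scaled for its length), which can be compared between genes, and which give the share of a library's RNA and not an amount per cell. Each library was made from an equal mass of RNA, so a profile of TPM does not show how much of an RNA lay in each fraction. The deposited totals ran from 998099 to 999074 in gradient 1 and from 998290 to 999202 in gradient 2, so that sequencing depth is unknown from these values. Hepatocyte markers were abundant in every library, at a summed 7755 to 57265 TPM for 6 of 6 genes in gradient 1 and 12020 to 37980 TPM in gradient 2. Markers of other liver cells were far lower, with summed levels of 27.6 to 85.8 TPM for Kupffer cells, 15.1 to 68.8 TPM for sinusoidal endothelium, 3.78 to 75.1 TPM for stellate cells and 3.09 to 9.43 TPM for bile duct. In whole tissue, fewer cells of a type and less RNA per cell cannot be told apart.

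The activators were among the less abundant clock RNAs, and Clock was highest in light fractions. Arntl ran from 6.15 TPM in fraction 5 through a median of 14.0 TPM to 19.0 TPM in fraction 21 of gradient 1. In gradient 2 it ran from 0.774 TPM in fraction 4 through a median of 1.48 TPM to 2.13 TPM in fraction 15. Every library of gradient 1 was above every library of gradient 2, and in gradient 1 the 4 lowest values were those of the 4 lightest fractions. Clock ran from 5.64 TPM (fraction 17) through a median of 15.4 TPM to 55.3 TPM (fraction 5) in gradient 1. In gradient 2 it ran from 2.62 TPM (fraction 21) through a median of 5.49 TPM to 23.2 TPM (fraction 6). Clock thus had its largest shares in light fractions of both gradients, with a highest value 9.82 and 8.87 times the lowest. The lightest library, fraction 3 of gradient 2, was lower, at 8.19 TPM.

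The period genes encode the repressors that carry the timing of the loop, and Per1 and Per2 had their highest levels in the densest fractions of gradient 2, where Per3 was low. Per1 ran from 12.6 TPM (fraction 4) through a median of 22.8 TPM to 38.2 TPM (fraction 17) in gradient 1. In gradient 2 it ran from 12.8 TPM (fraction 4) through a median of 32.9 TPM to 71.8 TPM (fraction 23), and its 5 highest values were those of the 5 densest fractions. Per2 was the flatter of this pair, between 4.83 and 8.66 TPM (median 5.89 TPM) in gradient 1. In gradient 2 Per2 lay between 5.03 and 16.5 TPM (median 9.85 TPM), again with its 5 highest values in fractions 20 to 24. Per3 had a broad peak at light to middle fractions, between 4.04 TPM (fraction 16) and 11.3 TPM (fraction 6) in gradient 1 with a median of 6.17 TPM. In gradient 2 Per3 ran from 18.9 TPM (fraction 19) through a median of 27.0 TPM to 54.8 TPM (fraction 8), and every library of gradient 2 was above every library of gradient 1.

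Of the cryptochrome genes, which encode the partners of the PER proteins, Cry1 peaked in the middle and Cry2 was the flattest clock RNA in gradient 1. Cry1 ran from 7.10 TPM (fraction 5) through a median of 12.8 TPM to 17.5 TPM (fraction 12) in gradient 1, and from 2.39 TPM (fraction 6) through 4.80 TPM to 11.1 TPM (fraction 11) in gradient 2. Cry2 ran from 32.1 TPM through 46.1 TPM to 54.2 TPM in gradient 1, so that its highest value was 1.69 times its lowest. In gradient 2 Cry2 ran from 21.9 TPM (fraction 3) through 38.0 TPM to 48.6 TPM (fraction 5).

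The REV-ERB genes, which encode nuclear receptors that repress Arntl, had opposite profiles of level over the fractions. Nr1d1 ran from 64.9 TPM (fraction 4) through a median of 158 TPM to 242 TPM (fraction 21) in gradient 1, and from 71.0 TPM (fraction 3) through 216 TPM to 255 TPM (fraction 17) in gradient 2. Nr1d2 ran from 17.5 TPM (fraction 17) through a median of 55.8 TPM to 121 TPM (fraction 5) in gradient 1, and from 25.2 TPM (fraction 24) through 55.3 TPM to 170 TPM (fraction 4) in gradient 2. In the lightest libraries Nr1d2 exceeded Nr1d1, and in the dense ones Nr1d1 exceeded Nr1d2 several-fold. Nr1d2 had a second, lower maximum in fraction 9 of each gradient, at 96.2 TPM in gradient 1 and 158 TPM in gradient 2.

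Dbp, the D-box activator and a direct output of BMAL1 and CLOCK, had the widest range of levels in gradient 1. It ran from 12.0 TPM (fraction 4) through a median of 107 TPM to 136 TPM (fraction 11) in gradient 1, a ratio of 11.3 between the highest and lowest. In gradient 2 it ran from 91.0 TPM (fraction 3) through a median of 299 TPM to 519 TPM (fraction 13). Its level climbed steeply through the light fractions and was highest in the middle in both gradients. In gradient 1 it stayed near that height, with 117 TPM in fraction 18, 69.1 TPM in fraction 19 and 116 TPM in fraction 21. The plot of levels by fraction shows these shapes side by side.

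**Figure D1:**
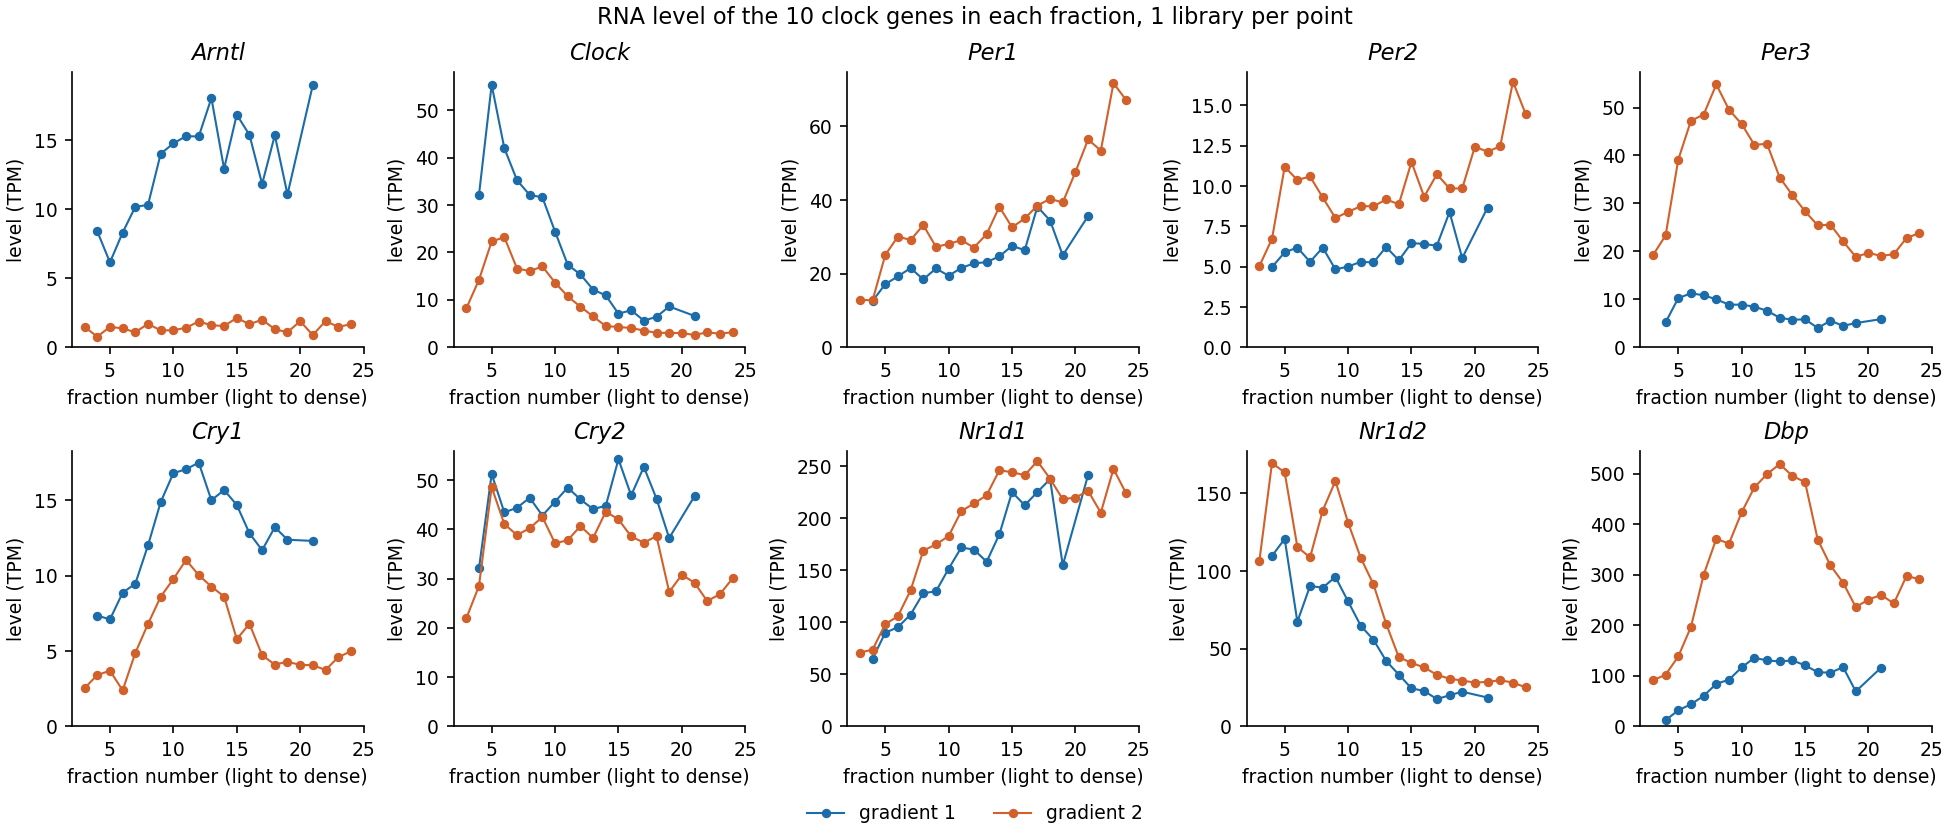
Level of each clock gene in TPM (vertical axis, starting at 0 and scaled for each gene) against fraction number, 1 library per point, with gradient 1 in blue and gradient 2 in orange. Clock and Nr1d2 are highest in light fractions, Nr1d1 and Per1 climb towards the dense end, and Cry1 and Dbp are highest in the middle. The curves of Arntl and of Per3 for the 2 gradients do not overlap in level.

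Ordered by mean TPM, the clock RNAs of gradient 1 ran Nr1d1 (162 TPM), Dbp (94.3 TPM), Nr1d2 (57.4 TPM), Cry2 (45.5 TPM), Per1 (24.1 TPM), Clock (20.6 TPM), Arntl (13.1 TPM), Cry1 (12.9 TPM), Per3 (7.31 TPM) and Per2 (6.02 TPM). Only 2 steps of that order held in all 17 fractions, Nr1d1 above Dbp and Cry2 above Per1. Arntl, although above Cry1 in its mean, was above it in 8 of 17 fractions, and Nr1d2 was above Cry2 in 9 of 17, so that these neighbors did not differ beyond their spread over fractions. In gradient 2 the order was Dbp (319 TPM), Nr1d1 (192 TPM), Nr1d2 (77.9 TPM), Per1 (36.6 TPM), Cry2 (35.7 TPM), Per3 (32.1 TPM), Per2 (10.2 TPM), Clock (8.84 TPM), Cry1 (5.83 TPM) and Arntl (1.49 TPM). Dbp above Nr1d1, Per3 above Per2 and Cry1 above Arntl held in all 22 fractions, whereas Per1 was above Cry2 in 8 of 22 and Clock above Cry1 in 8 of 22.

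To ask where along the gradient each clock RNA was enriched, the mean of log2(TPM + 1) over 4 fractions was compared between a light zone (fractions 4 to 7), a middle zone (10 to 13) and a dense zone (16 to 19) of each gradient. Between the light and the dense zone, 2 clock genes rose, Nr1d1 and Per1, and 2 fell, Clock and Nr1d2, by limma with Benjamini-Hochberg adjusted p under 0.05 over all genes tested. Over all 11754 genes 22.3% rose and 39.6% fell, so 2 of 10 in each direction was not more than the background. The median difference of the 10 genes was 0.28 on the log2(TPM + 1) scale, beside −0.43 over all genes (0.80 beside −0.053 under quantile normalization). Because the zones of a gradient came from 1 homogenate, a second fit took the gradient as a block, which removes the level difference between the gradients. With the block, 4 genes were higher (Nr1d1, Per1, Cry1 and Dbp) and 3 lower (Clock, Nr1d2 and Per3), where 30.5% of all genes rose and 50.0% fell.

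Nr1d1 had a mean of 89.5 TPM in the light and 208 TPM in the dense zone of gradient 1, and 102 and 238 TPM in gradient 2. The libraries of the zones did not overlap in either gradient. Its log2(TPM + 1) difference was 1.23 ± 0.19 (SE of the fit, n = 2 gradients, limma adjusted p = 0.00269). Its close relative Nr1d2 had 97.1 and 20.7 TPM in the light and dense zones of gradient 1, and 139 and 32.8 TPM in gradient 2. Again no library of one zone reached the range of the other, and the difference was −2.09 ± 0.35 (SE, limma adjusted p = 0.00349).

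Clock and Nr1d2 showed the largest differences among the clock genes. That of Clock was the larger, except under quantile normalization and without fraction 6, where that of Nr1d2 was. Clock had a mean of 41.2 TPM in the light and 7.12 TPM in the dense zone of gradient 1, and 19.1 and 3.43 TPM in gradient 2. The zones did not overlap in either gradient, and the log2(TPM + 1) difference was −2.26 ± 0.49 (SE, limma adjusted p = 0.00945). Per1 had 17.6 and 31.0 TPM in gradient 1, and 24.3 and 38.3 TPM in gradient 2, without overlap. Its difference of 0.74 ± 0.24 (SE) was close to the threshold (limma adjusted p = 0.0394, and 0.00116 with the block), and it missed the threshold without fraction 4 (adjusted p = 0.123), without fraction 17 (0.0609) and with TPM rescaled without the 50 most abundant genes (0.0568). Under these 3 settings the difference of Per1, an E-box gene shown above, was 0.54, 0.69 and 0.68.

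For Dbp, Cry1 and Per3 the call depended on the block. Dbp had 36.9 TPM in the light and 99.9 TPM in the dense zone of gradient 1, and 184 and 302 TPM in gradient 2, where the libraries overlapped. Its difference was 1.20 on the log2(TPM + 1) scale, with a limma SE of 1.02 and adjusted p of 0.339 without the block and an SE of 0.20 and adjusted p of 0.00295 with it. Cry1 was at 8.20 and 12.5 TPM in gradient 1 and at 3.59 and 4.98 TPM in gradient 2, a difference of 0.48 (limma adjusted p = 0.465, and 0.0371 with the block). Per3 was at 9.39 and 4.78 TPM in gradient 1 and at 39.6 and 23.0 TPM in gradient 2, a difference of −0.76 (limma adjusted p = 0.565, and 0.00269 with the block), and its lightest library, fraction 4, kept the zones overlapping. The directions were shared by the gradients for these 3 genes, and the unblocked error holds the level difference between the gradients.

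Arntl, Per2 and Cry2 were not called between the light and dense zones in either fit. Arntl differed by 0.42 (limma adjusted p = 0.787, and 0.0850 with the block), Per2 by 0.13 (0.772 and 0.326) and Cry2 by −0.0098 (0.970 and 0.936). For Cry2 the gradients gave opposite signs, 0.11 in gradient 1 and −0.13 in gradient 2, with overlapping libraries in both.

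Between the middle and the light zone, only Nr1d1 was called (0.96 ± 0.19 SE, limma adjusted p = 0.00978), where 23.5% of all genes rose and 24.1% fell. With the block, 5 genes were higher (Dbp, Cry1, Nr1d1, Arntl and Per1) and 2 lower (Clock and Nr1d2), beside 37.2% and 35.0% of all genes. The largest of these differences was that of Dbp, 1.73 on the log2(TPM + 1) scale, from 36.9 to 128 TPM in gradient 1 and from 184 to 479 TPM in gradient 2 (limma adjusted p = 0.209, and 0.00117 with the block). Cry1 differed by 1.12, from 8.20 to 16.6 TPM and from 3.59 to 10.0 TPM, with no overlap of libraries in either gradient (limma adjusted p = 0.136, and 0.00228 with the block). Arntl (0.55) and Per1 (0.31) were near the threshold, with limma adjusted p of 0.0444 and 0.0338 with the block. The libraries of the zones overlapped in gradient 2 for Arntl and in both gradients for Per1.

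Between the middle and the dense zone, only Nr1d2 was called, with a fall from 60.8 to 20.7 TPM in gradient 1 and from 99.3 to 32.8 TPM in gradient 2 (−1.51 ± 0.35 SE, limma adjusted p = 0.0270). Under quantile normalization this call was lost (−1.18, adjusted p = 0.0908). In this contrast 4.79% of all genes rose and 22.5% fell. With the block, Per1 was higher (0.44) and Clock, Nr1d2, Per3 and Cry1 were lower (−1.20, −1.51, −0.72 and −0.64), beside 14.1% of all genes with a higher and 39.3% with a lower level there. Dbp was called in neither fit (−0.53, limma adjusted p = 0.752, and 0.0754 with the block), and its libraries overlapped in gradient 1.

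**Figure D2:**
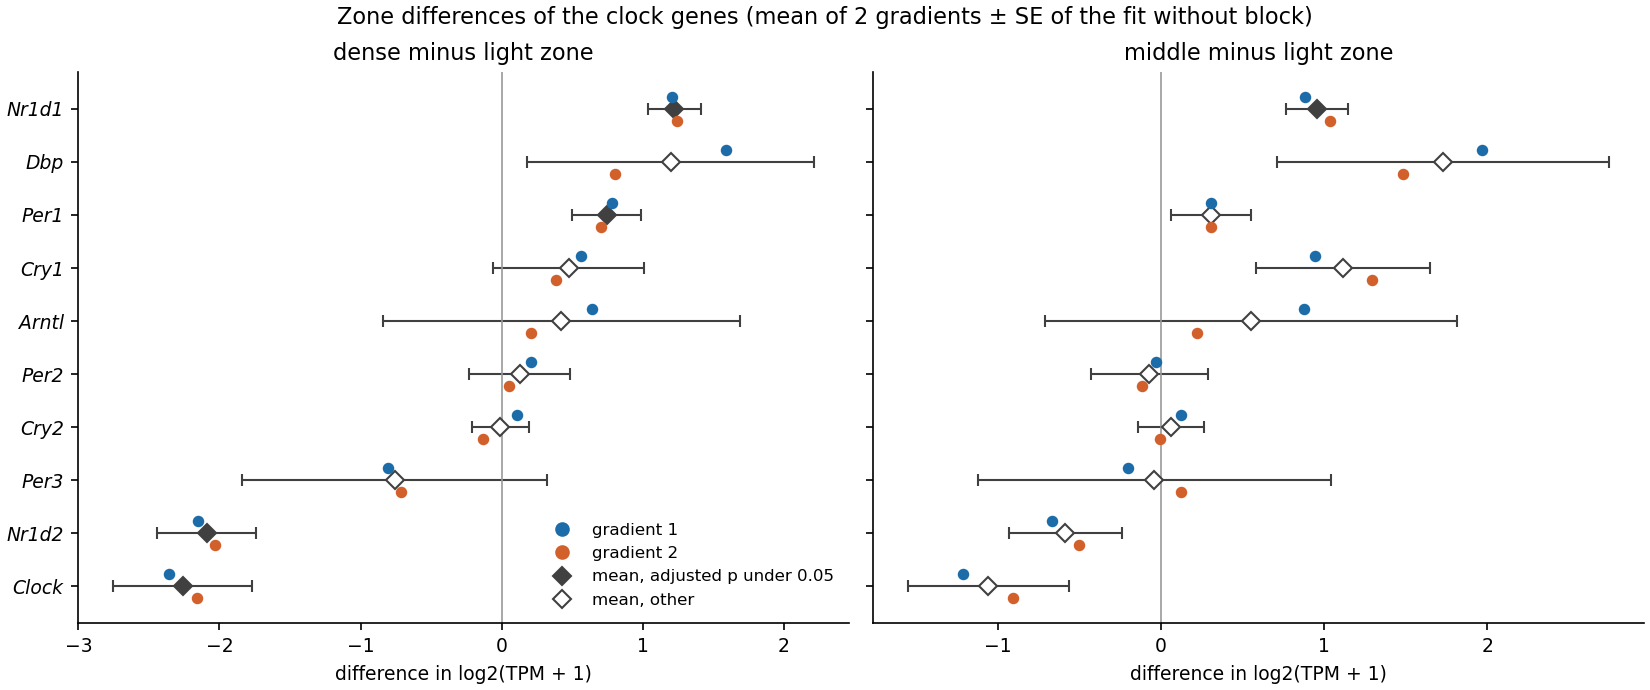
Difference in log2(TPM + 1) between zones for each clock gene (horizontal axis), dense minus light on the left and middle minus light on the right, with each gradient as a dot and the mean as a diamond with the SE of the fit without block. Filled diamonds passed an adjusted p of 0.05. Clock and Nr1d2 lie near −2 and Nr1d1 above 1 on the left, and the wide bars of Arntl, Per3 and Dbp hold the difference in level between the gradients.

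RNAs that reside mostly in the nucleus were also higher at the light end. The summed level of Malat1, Neat1 and Xist (3 of 4 genes on the list) was 315 TPM in the light zone, 32.7 TPM in the middle zone and 21.9 TPM in the dense zone of gradient 1, and 585, 52.9 and 27.8 TPM in gradient 2. From the light to the dense zone the summed markers also went from 72.2 to 33.8 TPM for Kupffer cells, from 64.0 to 29.1 TPM for endothelium, from 42.0 to 8.57 TPM for stellate cells and from 394 to 89.0 TPM for erythroid cells in gradient 1, and were lower in the dense zone of gradient 2 for the same 4 lists. The sum of the bile duct markers went the other way, from 5.80 to 7.21 TPM and from 4.49 to 5.74 TPM. None of these was called, with Krt19 at 0.56, Spp1 at 0.22 and Sox9 at −0.043, and Krt7 was not tested. The hepatocyte list went both ways. Its sum was 47558 TPM in the light and 9581 TPM in the dense zone of gradient 1, with Alb (−2.59), Serpina1c (−3.49) and Hnf4a (−1.08) lower and Cps1 higher (2.12) in the dense zone by limma, and with Apoa1 (−0.35) and Ttr (0.49) not called. On the erythroid list Alas2 (0.76, not called) differed in sign from the globin genes. Clock and Nr1d2 shared the direction of the nuclear RNAs and of the sums for Kupffer, endothelial, stellate and erythroid markers, whose part in their levels was not tested. The clock genes Nr1d1, Dbp, Cry2 and Arntl overlap the genes Thra, Sphk2, D930015M05Rik and Gm45355 on the other strand, Per3 overlaps Camta1 on its own strand, and Clock overlaps Gm43658 and the pseudogene Ube2n-ps1 on its own strand. How reads from such overlaps were divided is not given in the sources used here.

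The center of sedimentation was the mean fraction number weighted by TPM over the 17 shared fractions. It weighs each library equally, whatever its amount of RNA, and placed the clock RNAs on a line from Clock to Nr1d1. It was 8.90 and 9.01 for Clock and 9.29 and 9.40 for Nr1d2 in gradients 1 and 2, which put them at the 14.6 and 11.6 and at the 20.1 and 16.3 percentiles of all genes. Per3 lay just below the median of all genes, 11.3 in each gradient, with 10.9 in both. Cry2, Cry1 and Per2 lay above it, at 12.2 and 11.8, 12.6 and 12.1, and 12.6 and 12.3. Arntl was at 13.0 and 12.3, Dbp at 13.3 and 12.6, Per1 at 13.3 and 13.2, and Nr1d1 at 13.5 and 13.3, the last at the 83.8 and 84.9 percentiles. Clock and Nr1d2 had the lowest centers under every setting tried, whereas the dense end depended on the setting. Over all 22 fractions of gradient 2, Per1 (15.8) lay beyond Nr1d1 (15.1), and with log2(TPM + 1) as the weight Dbp had the highest center in gradient 1 and Per1 in gradient 2. Over the shared fractions Arntl and Dbp differed most between the gradients, by 0.70 and 0.72 fractions.

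The profile of a clock gene in gradient 1 was compared with that in gradient 2 by Pearson's R over the 17 shared fractions, as a description, since neighboring fractions are not independent. Nr1d2 (R = 0.979), Clock (0.972) and Nr1d1 (0.919) were above the median of all genes, 0.90. Per3 (0.883), Dbp (0.872), Cry1 (0.865) and Per1 (0.819) were below it but between the quartiles over all genes, 0.749 and 0.959. Per2 (0.634), Cry2 (0.584) and Arntl (0.188) were under the lower quartile. With the fraction numbers of one gradient shifted by 1 in either direction, R was 0.631 and 0.348 for Arntl, 0.335 and −0.185 for Cry2, and 0.608 and 0.317 for Per2, which changed little in the first of these directions, and Spearman's rho without a shift was 0.221, 0.194 and 0.767. Arntl was the clock RNA with the lowest level in gradient 2, and Cry2 and Per2 were those with the smallest ratio of highest to lowest level in gradient 1.

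Pairs of clock genes were compared in the same way within each gradient. Of 45 pairs, 20 had a positive R in both gradients, 15 a negative R in both, and 10 changed sign. Clock and Nr1d2 were alike (R = 0.912 in gradient 1 and 0.899 in gradient 2), as were Cry1 and Dbp (0.903 and 0.869) and Per1 and Per2 (0.712 and 0.898). The first pair leans to the light end, the next is highest in the middle, and the last shares the climb in the densest fractions of gradient 2. The paralogs Nr1d1 and Nr1d2 had opposite profiles (−0.881 and −0.791). The partners of the activator dimer, Arntl and Clock, had an R of −0.763 in gradient 1 and only −0.326 in gradient 2, where the mean of Arntl was 1.49 TPM. These values share the libraries of a gradient, and they were computed over 17 and 22 fractions.

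**Figure D3:**
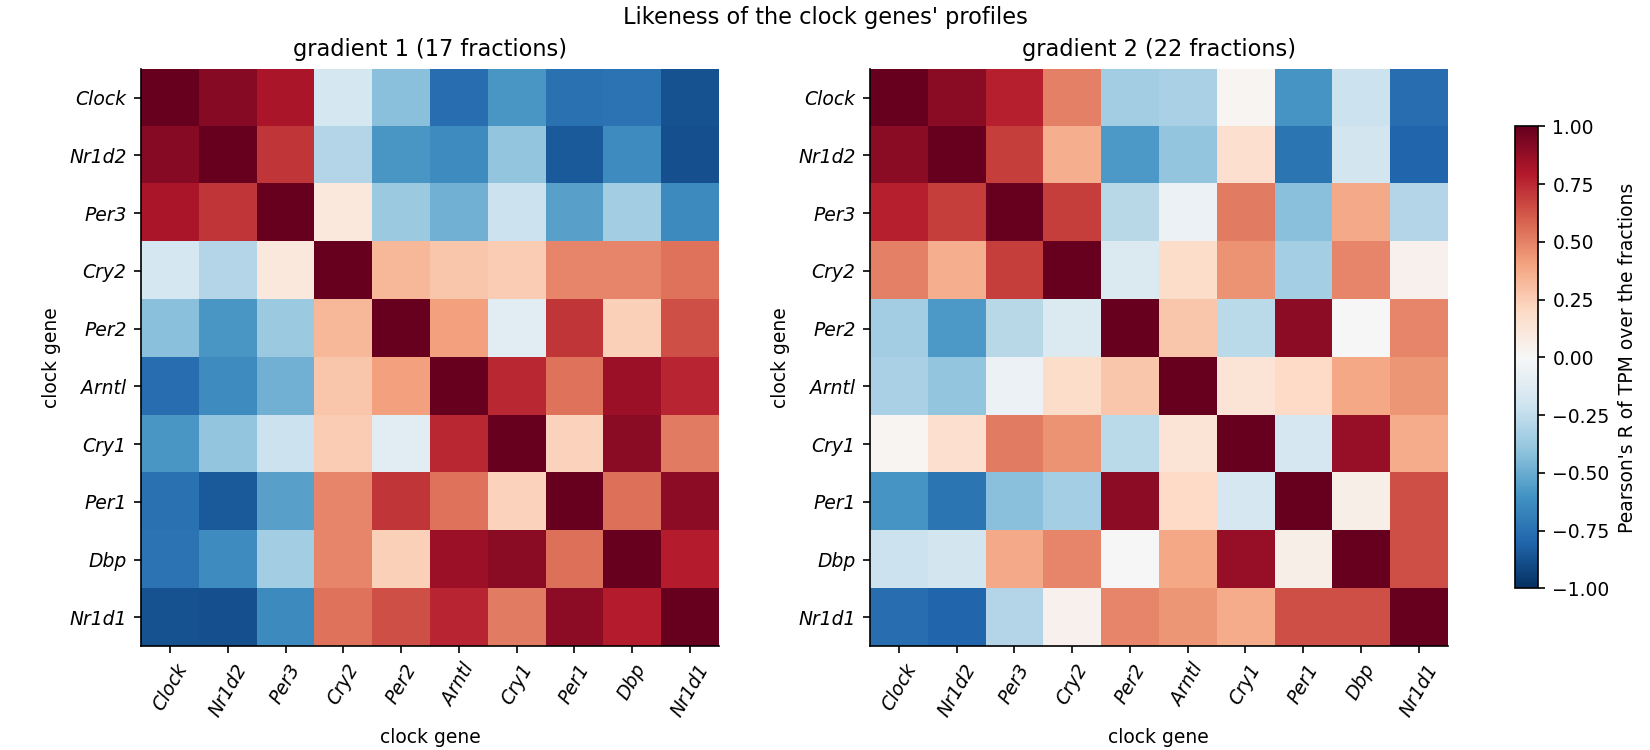
Pearson's R of TPM over the fractions for each pair of clock genes, in gradient 1 (left, 17 fractions) and gradient 2 (right, 22 fractions), with genes on both axes ordered by their dense minus light difference and the diagonal at 1 by definition. Clock, Nr1d2 and Per3 form a block of positive values at the upper left of both panels, and their values with Nr1d1 and Per1 are negative in both.

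Among 11308 genes, those most like each clock gene were ranked by the smaller of the R values of the 2 gradients. Clock had the closest likes, Taok1 (0.995), Rc3h1 (0.991) and Smurf2 (0.991), and 794 genes were over 0.9 with it in both gradients. Nr1d2 was nearest to Pcnp (0.989), Fam178a and Atf2, with 337 genes over 0.9, and Nr1d1 to Grb7 (0.976), Bop1 and Mta3, with 368. Dbp was nearest to Ppp6r1 (0.977), Cry1 to Osgep (0.959), Per3 to Scnn1a (0.953) and Per1 to Ptcd1 (0.945), with 139, 105, 128 and 79 genes over 0.9. Per2, Cry2 and Arntl had no gene over 0.9, and their nearest were Srrm1 (0.862), Shc1 (0.807) and Zfp444 (0.665). None of the 3 nearest genes of any clock gene was another clock gene.

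The level of the clock genes differed between the gradients by a larger median than that of all genes. The comparison sets 1 gradient against 1, so these differences have no replicate check and no test, and a ratio is of the mean TPM over the 17 shared fractions. Per3 and Dbp were more than 2-fold higher and Arntl more than 2-fold lower in gradient 2 on the log2(TPM + 1) scale, where 1.70% of 11702 genes were more than 2-fold higher and 1.71% more than 2-fold lower. The median size of the difference, whatever its sign, was 0.76 over the 10 clock genes and 0.28 over all genes. The clock genes were chosen with earlier results known, so this contrast is a description.

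Arntl had a mean of 13.1 TPM in gradient 1 and 1.44 TPM in gradient 2, a ratio of 9.14 in favor of gradient 1. It was lower in gradient 2 in 17 of 17 fractions, by −3.40 to −1.52 on the log2(TPM + 1) scale (mean −2.50). Per3, which carries the D-boxes shown above, had 7.31 and 35.3 TPM, a ratio of 4.83 in favor of gradient 2, and was higher there in 17 of 17 fractions (1.54 to 2.39, mean 2.11). Dbp had 94.3 and 343 TPM, a ratio of 3.64, and was also higher in 17 of 17 fractions, by 1.16 to 2.98 (mean 1.92). The libraries of the gradients did not overlap for Arntl and Per3, and they did for Dbp, whose lightest libraries in gradient 2 lay within the range of gradient 1.

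Cry1 and Clock were lower in gradient 2 in 17 of 17 fractions, with 12.9 and 6.37 TPM for Cry1 (mean difference −0.97) and 20.6 and 10.2 TPM for Clock (−0.90). The ratios of these means were 2.02 in favor of gradient 1 for both genes, whereas on the log2(TPM + 1) scale both were just short of 2-fold. Nr1d2 (0.62), Per2 (0.60) and Per1 (0.41) were higher in gradient 2 in 17 of 17 fractions, and Nr1d1 (0.25) in 16 of 17. Cry2 was the nearest to equal with Nr1d1, at 45.5 and 38.2 TPM (−0.25). The differences of Cry2 and Nr1d1 were smaller than the median size over all genes.

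The other genes of the clock pathway were taken from 6 lists of 33 genes in all, of which 29 were measured in both gradients. Of these, 9 were more than 2-fold higher in gradient 2 and 1 was more than 2-fold lower, beside 1.70% and 1.71% of all genes. The lists were chosen with earlier results of these data known, so the counts describe the lists and do not test an excess over all genes. Rhythmic liver outputs accounted for 7 of the 9, out of 10 listed, and their median difference was 1.50. They were Usp2 (3.91 and 33.1 TPM), a deubiquitinase, Alas1 (115 and 719 TPM), the first enzyme of heme synthesis, Cyp2a5 (26.5 and 168 TPM), Coq10b (17.3 and 77.7 TPM), Cyp7a1 (6.47 and 19.5 TPM), the rate-limiting enzyme of bile acid synthesis, Por (35.4 and 90.5 TPM), the reductase of the cytochrome P450 enzymes, and Wee1 (4.82 and 12.8 TPM), a mitotic kinase. All 7 were higher in gradient 2 in 17 of 17 fractions. The remaining 3, Nampt (0.87), Gys2 (0.90) and Lpin1 (0.77), were also higher in all 17.

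Among the feedback factors, 2 of 6 measured were more than 2-fold higher in gradient 2, beside the same 1.70% of all genes. Ciart, a repressor of BMAL1 and CLOCK, had 1.87 and 23.1 TPM, a ratio of 12.3, and Noct, a phosphatase with a strong daily rhythm in liver, had 7.14 and 46.1 TPM. Of the 3 relatives and antagonists of DBP, Nfil3, the repressor that competes at D-boxes, was more than 2-fold lower (46.1 and 15.9 TPM, mean difference −1.53). Tef was higher by 0.90 and Hlf lower by 0.34. None of the 6 kinases and ubiquitin ligases or the 3 corepressors was past 2-fold, nor was Rora (−0.054). The median difference in size was 0.23 for the kinases and ligases and 0.087 for the corepressors, beside 0.28 for all genes. Npas2, a relative of Clock, was listed only in gradient 1 (mean 2.08 TPM) and Bhlhe41 only in gradient 2 (mean 1.45 TPM).

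**Figure D4:**
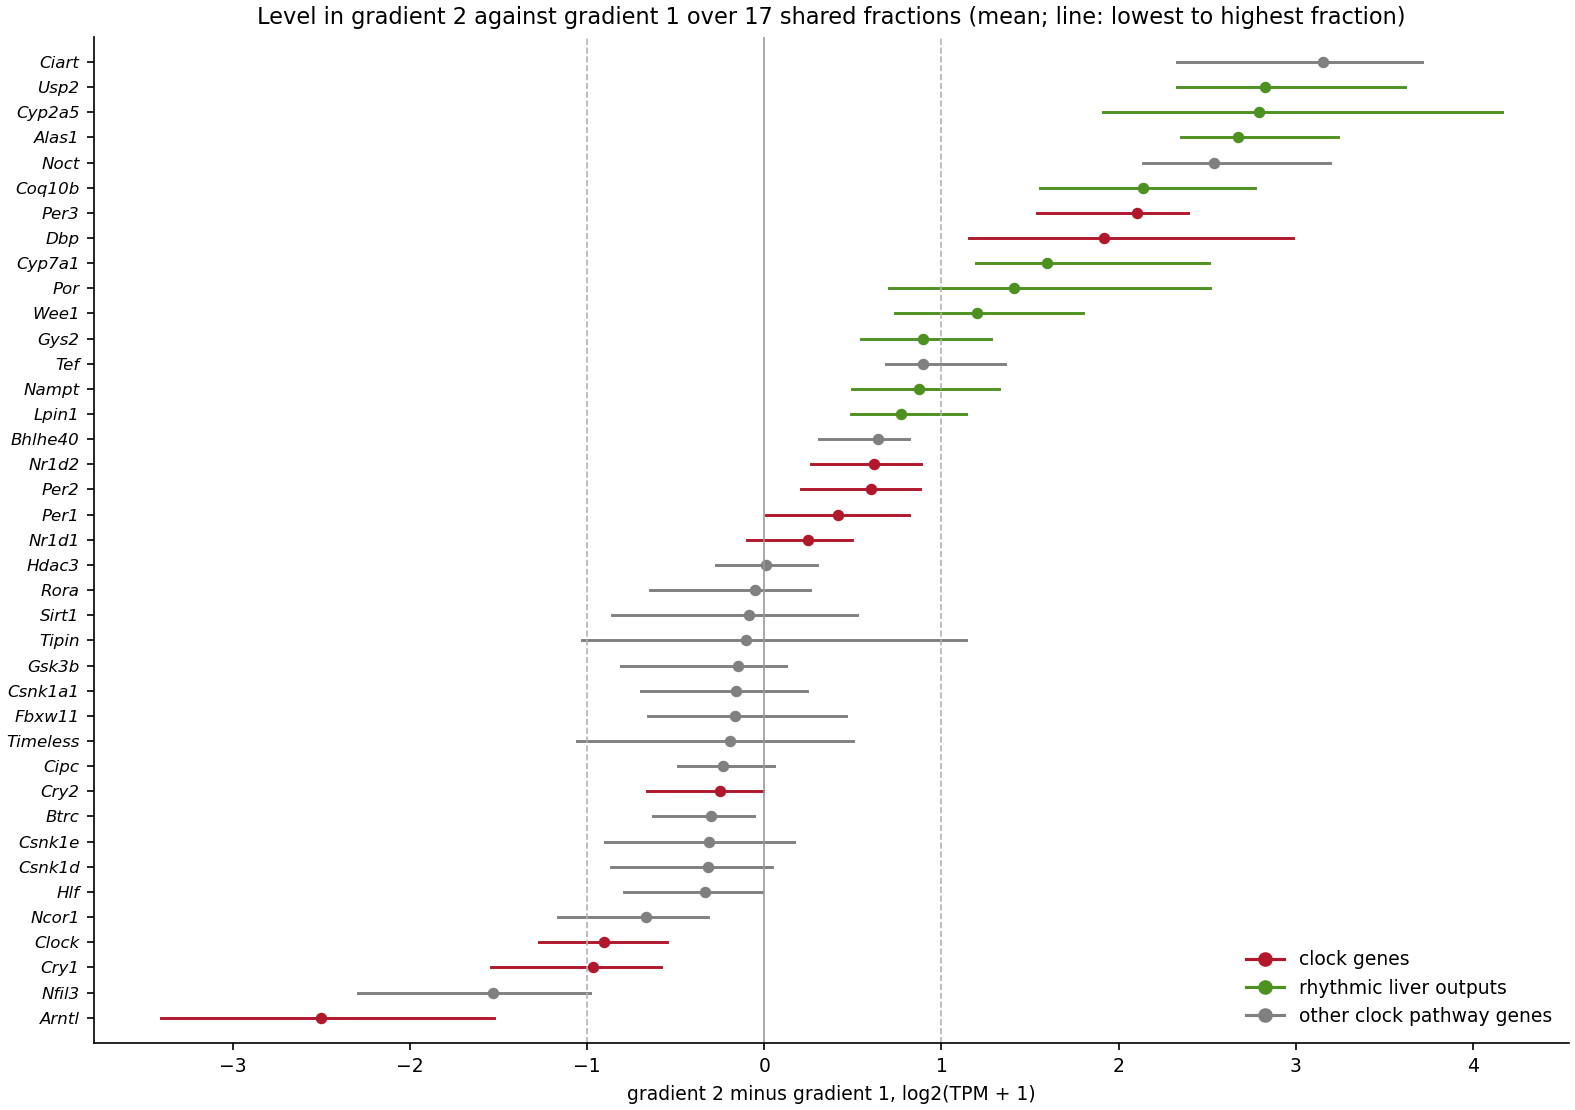
Difference in log2(TPM + 1) between gradient 2 and gradient 1 (horizontal axis) for the 10 clock genes (red), 10 rhythmic liver outputs (green) and 19 other clock pathway genes (gray), as the mean over 17 shared fractions with a line from the lowest to the highest fraction. Dashed lines mark 2-fold. Arntl is lowest at −2.50, Ciart is highest at 3.15, and kinases, ligases and corepressors lie within 2-fold.

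Markers of cell types also differed between the gradients, by less than 2-fold. The summed level in gradient 2 over that in gradient 1 was 1.05 for hepatocytes, 1.02 for Kupffer cells, 0.628 for sinusoidal endothelium, 1.32 for stellate cells, 0.906 for bile duct, 0.753 for erythroid cells and 1.77 for nuclear RNA. No marker measured on any of the 7 lists was past 2-fold on the log2(TPM + 1) scale. Single hepatocyte markers came near it, with 1254 and 2432 TPM for Apoa1 and 2064 and 4086 TPM for Cps1, and the part of such differences in the levels of the clock genes was not tested. Hbb-bs, Hbb-bt, Col1a1, Epcam and Meg3 were not listed in both tables.

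Clock and Nr1d2, the clock RNAs called lower in the dense zone, had the longest annotated 3′ UTRs, read from the transcript with the longest coding sequence (GENCODE M21, GRCm38). The length was 6834 bases for Clock and 2634 bases for Nr1d2, and 2227, 2180 and 1892 bases for Per3, Cry2 and Per2. Cry2 and Per2 did not lean to the light end, with dense minus light differences of −0.0098 and 0.13 that were not called. The others were short, at 615 bases for Cry1, 604 for Per1, 326 for Dbp, 291 for Nr1d1 and 224 for Arntl. Across the 10 genes Spearman's rho between this length and the dense minus light difference was −0.915 in gradient 1 and −0.879 in gradient 2. It was −0.547 and −0.539 over 39 clock and pathway genes, and −0.290 and −0.323 over the 10819 tested genes with a gene model. Length of the whole transcript, which holds the UTR, gave −0.758 and −0.709 across the 10 clock genes, and length of the coding sequence gave −0.115 and −0.091. The paralogs Nr1d1 and Nr1d2 have coding sequences of 1845 and 1728 bases and 3′ UTRs of 291 and 2634 bases. Among the pathway genes, Rora (9288 bases) and Hlf (4226 bases) had differences of −2.46 and −1.97. Nampt (2819 bases) and Lpin1 (2747 bases) had 0.38 and 0.41, called only with the block, and Gsk3b, with 213 bases, had −1.59. Whether UTR length has a part in these differences was not tested. These values describe 10 genes measured in the same libraries, and which transcript of a gene was present was not measured here.

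**Figure D5:**
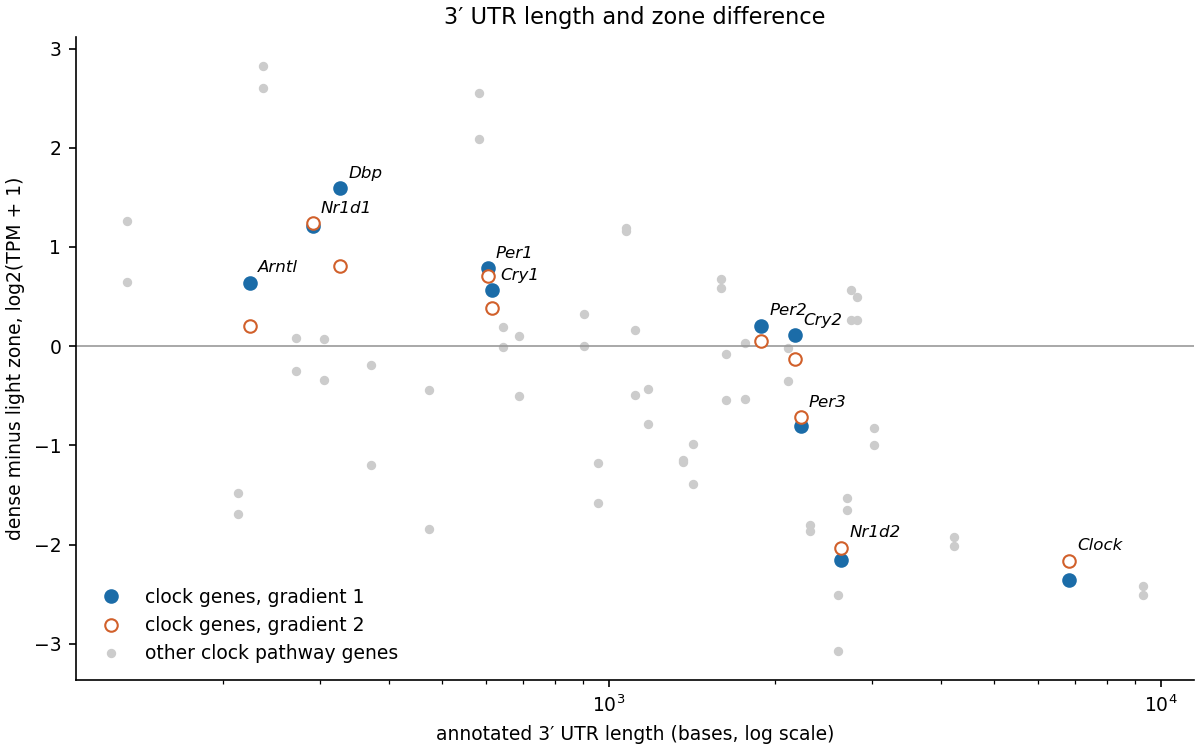
Dense minus light difference in log2(TPM + 1) (vertical axis) against annotated 3′ UTR length in bases (horizontal log axis) for the clock genes in gradient 1 (filled blue) and gradient 2 (open orange) and for 29 other clock pathway genes (gray, both gradients). Clock at 6834 bases and Nr1d2 at 2634 bases lie lowest among the clock genes, and the 5 clock genes with the shortest 3′ UTRs all lie above 0.

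Between the light and the dense zone, 2 of 29 other pathway genes rose and 9 fell (limma, adjusted p under 0.05), with a median difference of −0.25. Over all genes 22.3% rose and 39.6% fell, so neither count was above the background. Rora, which encodes a receptor that activates Arntl at the sites the REV-ERBs repress, fell from 72.4 to 12.4 TPM in gradient 1 and from 69.9 to 11.1 TPM in gradient 2. Hlf, a relative of Dbp, fell by 1.97 on the log2(TPM + 1) scale (limma adjusted p = 0.000997). Of the kinases and ubiquitin ligases that set the stability of PER and CRY, Csnk1e, Gsk3b and Fbxw11 fell and Btrc rose (1.18, limma adjusted p = 0.00655). Cipc, Tipin, Ncor1 and Cyp7a1 also fell, and Gys2, the liver glycogen synthase, rose by 2.72. With the block, 7 rose and 13 fell, beside 30.5% and 50.0% of all genes. The block added Bhlhe40, Ciart, Nampt, Alas1 and Lpin1 as higher and Tef, Wee1, Por and Cyp2a5 as lower in the dense zone. The difference of Bhlhe40, a repressor at E-boxes, was 0.63 (limma adjusted p = 0.00199 with the block, and 0.169 without). That of Alas1 was 2.32 (0.00013 and 0.183), and that of Tef was −0.91 (0.000645 and 0.133, limma adjusted p).

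Between the light and the middle zone 3 pathway genes rose (Csnk1a1, Hdac3 and Gys2) and 5 fell (Rora, Hlf, Cipc, Gsk3b and Fbxw11), by limma at an adjusted p under 0.05, beside 23.5% and 24.1% of all genes. With the block 7 rose and 8 fell, beside 37.2% and 35.0%, the additions being Btrc, Nampt, Alas1 and Coq10b as higher and Tef, Cyp7a1 and Cyp2a5 as lower. Between the middle and the dense zone 9 of 29 fell, beside 22.5% of all genes, and with the block 5 rose and 13 fell, beside 14.1% and 39.3%. The block added Bhlhe40, Btrc, Alas1, Gys2 and Lpin1 as higher there and Tef, Csnk1d, Ncor1 and Wee1 as lower, with a difference of −0.46 for Csnk1d, a kinase of the PER proteins (limma adjusted p = 0.0263 with the block). Hdac3, the deacetylase through which REV-ERB represses, was highest in the middle zone, as Cry1 and Dbp were. Hdac3 had 26.2, 65.3 and 24.5 TPM in the light, middle and dense zones of gradient 1, and 24.0, 66.0 and 26.7 TPM in gradient 2. It was higher in the middle than in the light zone (1.42, limma adjusted p = 0.00189) and lower in the dense than in the middle zone (−1.33, adjusted p = 0.00702).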

How the data were processed

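The authors removed ribosomal RNA, made stranded libraries, quantified them with Kallisto (version not given in the sources used here) on an mm10 RefSeq index, and deposited TPM per gene and gradient for genes that exceeded 1 TPM in at least 1 fraction. TPM holds no counts, so no count model was used, and each fraction of a gradient has 1 library. Every value column was matched to a sample. The members and lists were chosen with earlier results of these data known.

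Zone means of log2(TPM + 1), a scale that understates differences of low genes, were tested with limma 3.58.1 (R 4.3.3, trend in eBayes) over the 11754 genes whose TPM averaged at least 1 across the 24 zone libraries, with Benjamini-Hochberg adjustment. The p-values rest on 2 gradients. Zones of a gradient share a homogenate, and their deviations between gradients correlated across genes (r = 0.665, 0.540 and 0.798), so the gradient pairs them and a fit with the gradient as a replicate block is given beside the calls of clock genes that it changes, with pathway genes that it adds named. limma was also run on simulated data whose zone values were drawn independently, without this pairing by gradient, so no conclusion is drawn from it. Marker lists covered hepatocytes, Kupffer cells, endothelium, stellate cells, bile duct, erythroid cells and nuclear RNA. All 10 clock genes are named, and other pathway genes where they passed a test or 2-fold. A few genes of the pathway lists are not reported here. Python 3.11.15 with pandas 2.3.3 was used.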

Additional observations from a re-analysis of the deposited data

How the results depend on the processing

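With the gradient as a replicate block, the clock genes called numbered 7 between the dense and light zones, 7 between the middle and light zones and 5 between the dense and middle zones, against 4, 1 and 1 without it. Leaving out each fraction number in turn gave 3 to 4 genes for dense against light, 1 to 1 for middle against light, 1 to 1 for dense against middle, and 3 to 3 past 2-fold between the gradients. Under quantile normalization 0 clock genes were called between the dense and middle zones by limma, with 1 at an unadjusted p under 0.05. Past 2-fold between the gradients, 5 clock genes were counted in place of 3 with all libraries of each gradient and 5 with log2 of the mean TPM, the additions being Clock and Cry1, and 4 with a pseudocount of 0.1, the addition being Cry1. A shift of the fraction numbers by 1 moved the agreement of profiles for 5 of 10 clock genes in either direction, and the fractions beyond the shared ones moved the center of all 10 in gradient 2. No difference that limma called without the block, and no level difference between the gradients, changed sign under the alternatives run, whereas the small uncalled zone differences of Cry2, Per2, Per3 and Arntl did so under some, as for Cry2 between the dense and light zones (0.15 under quantile normalization). Quantile normalization moved the median dense minus light difference of all genes from −0.43 to −0.053 and the share of higher among called genes from 36.0% to 50.6%, and from 17.5% to 42.9% for dense minus middle. Leaving out a gradient left no residual degrees of freedom, so it gave values without a test. A minimum mean TPM of 10 left out Arntl, Per2 and Cry1.

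TPM carries no depth, and each comparison of levels between the gradients rests on 1 gradient each.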
